A study of Mus musculus with 6 samples.

Results

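The genes described here are 10 members of the bone morphogenetic protein (BMP) pathway: the ligand genes Bmp2 and Bmp4, the antagonist genes Nog and Grem1, the inhibitor-of-DNA-binding genes Id1, Id2, Id3 and Id4, and the inhibitory SMAD genes Smad6 and Smad7. They were taken by symbol from a gene count table of 23358 rows, and each symbol matched 1 row. The RNA came from MC3T3-E1, an established mouse line of calvarial pre-osteoblasts with a C57BL/6 background, which is 1 line and not bone tissue. All cultures were grown to confluency in αMEM with 10% FBS, and the groups differed in what they then received for 16 h. One group had NU7441 at 1 µM, a small-molecule inhibitor of DNA-dependent protein kinase (DNA-PK), and the other had the vehicle DMSO. Each group had 3 sequenced samples, with no genetic change in either. According to the design text, RNA of triplicates was pooled and there were 3 independent experiments, but the text does not tie a sample number to an experiment, so p-values here measure the spread between these samples, which may be partly technical.

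BMPs are secreted dimers of the TGF-beta superfamily that bind type I and type II serine/threonine kinase receptors. The activated receptors phosphorylate SMAD1, SMAD5 and SMAD9, which enter the nucleus with SMAD4 and bind target genes. The ID genes, SMAD6 and SMAD7 are classical direct targets: ID proteins bind basic helix-loop-helix (bHLH) factors and keep them off DNA, while SMAD6 and SMAD7 feed back on the receptors. Noggin and gremlin 1, encoded by Nog and Grem1, bind BMPs outside the cell and block them. In osteoblasts this pathway is known as an inducer of bone formation.

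Libraries held between 47312968 and 71292628 gene counts, and the deepest was DMSO replicate 3. The quasi-likelihood test of edgeR was run on 13784 genes, and a gene was called at an adjusted p (Benjamini-Hochberg) under 0.05. It called 4231 genes, or 30.7% of those tested: 14.1% were called higher in NU7441 and 16.6% lower. Among the calls 45.9% were thus higher, and upper-quartile scaling in place of TMM made this 56.5%. The line's own markers Runx2, Sp7, Alpl, Col1a1, Col1a2 and Postn were all expressed; of these Alpl fell (log2 fold change -0.29, adjusted p = 0.006) and Col1a2 rose (0.05, adjusted p = 0.024). Among markers of other cell types, 2 of the 3 tested of the 5 chondrocyte genes rose, Sox9 (log2 fold change 0.14) and Col2a1 (0.23). The summed level of the 5 chondrocyte genes lay between 80.2 and 82.2 CPM (counts scaled to a library of 1e6) in DMSO. In NU7441 the sum lay between 87.4 and 91.5 CPM, and Acan was at 0 in every sample of both groups. Most of the sum was Sox9, with means of 72.2 CPM in DMSO and 79.3 CPM in NU7441, so the sum mainly restates the Sox9 change. The part of these marker changes in the results below was not tested. No tested adipocyte, macrophage and osteoclast, or endothelial marker passed, and the muscle markers were too low to test. Myod1, Ptprc and Kdr were at 0 throughout. Ctsk, on the macrophage and osteoclast list, was well expressed in every sample, between 104 and 116 CPM (edgeR adjusted p = 0.07).

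Transcripts of 5 of these BMP pathway genes were called modestly more abundant in NU7441, and none was called less abundant. Bmp4 and Grem1 had the largest changes, of 1.23-fold and 1.24-fold, followed by Id3, Id4 and Smad6 at 1.14-fold, 1.12-fold and 1.12-fold. Id1, Id2, Smad7 and Nog did not pass the test, and Bmp2 was almost undetected. Thus 5 of the 9 tested genes were called higher, where 14.1% of all tested genes were. By edgeR 0 were called lower, also at an unadjusted p of 0.05 and with DESeq2, where edgeR called 16.6% of all tested genes lower. The 9 genes had a median log2 fold change of 0.16, against 0.01 over all tested genes. All 3 NU7441 samples exceeded all 3 DMSO samples for 4 of the 9, where this held for 20.6% of all tested genes. The genes were chosen with earlier results of these data known, so these shares describe the set and do not test it. In cultures measured in bulk, more RNA per cell and a larger share of expressing cells cannot be told apart.

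**Figure D1:**
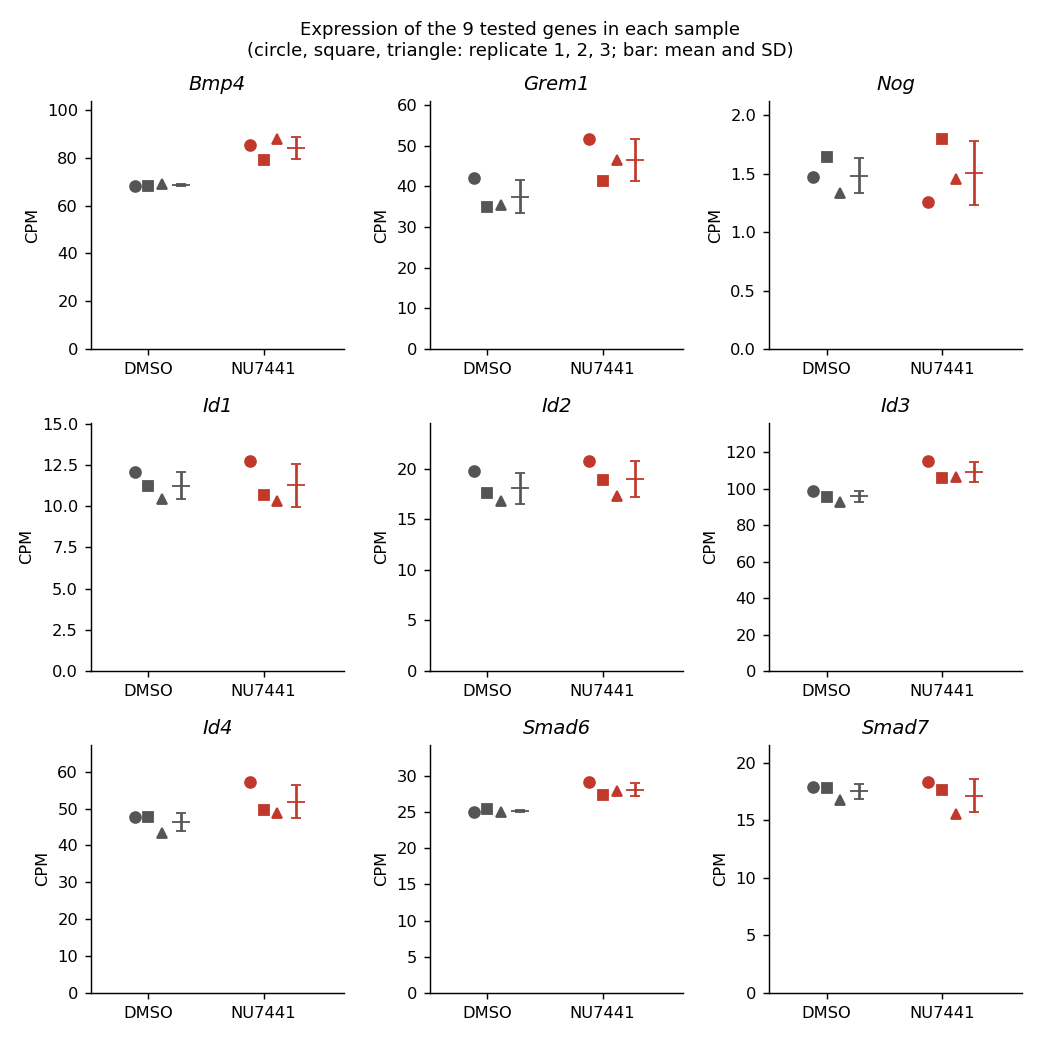
Normalized expression (CPM, vertical axis from 0) of the 9 tested genes in each of the 6 samples, with circles, squares and triangles for replicates 1, 2 and 3 and the mean with its SD beside them. The groups are separated for Bmp4, Id3, Id4 and Smad6 and overlap for the other genes.

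Upstream sequences are shown for the genes called higher, except Id3, and beside them for Id2, which did not pass the test. The RefSeq promoter table (GRCm38.p6) had entries for 6 of the 10 genes: Bmp4, Grem1, Id2, Id3, Id4 and Smad6. Each stretch ends just before the RefSeq transcript start, except that of Id2, which is limited to the 89 bases of its window that lie outside annotated exons. The Id3 window lies within an exon of the longer GENCODE M21 model of Id3 and is not printed. Sequences run 5′ to 3′ along the strand of the gene. Capitals mark GGCGCC, a GC-rich palindrome bound by SMAD1 and SMAD5, and CAGAC or its reverse complement GTCTG, the short SMAD box.
Bmp4 (chr14:46390670-46390919, minus strand): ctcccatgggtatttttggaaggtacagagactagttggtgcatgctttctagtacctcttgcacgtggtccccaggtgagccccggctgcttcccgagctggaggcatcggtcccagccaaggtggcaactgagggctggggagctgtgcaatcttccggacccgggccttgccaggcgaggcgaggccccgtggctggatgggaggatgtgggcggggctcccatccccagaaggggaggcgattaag
Grem1 (chr2:113758649-113758898, minus strand): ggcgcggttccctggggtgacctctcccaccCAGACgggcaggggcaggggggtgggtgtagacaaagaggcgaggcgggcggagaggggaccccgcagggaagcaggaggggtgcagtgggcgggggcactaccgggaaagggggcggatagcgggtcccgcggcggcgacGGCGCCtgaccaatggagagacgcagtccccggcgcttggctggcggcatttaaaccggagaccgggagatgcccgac
Id4 (chr13:48260866-48261115, plus strand): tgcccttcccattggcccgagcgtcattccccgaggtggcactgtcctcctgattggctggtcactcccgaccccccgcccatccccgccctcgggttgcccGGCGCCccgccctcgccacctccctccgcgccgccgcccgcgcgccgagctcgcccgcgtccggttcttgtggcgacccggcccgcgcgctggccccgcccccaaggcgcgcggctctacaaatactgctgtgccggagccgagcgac
Smad6 (chr9:64022060-64022309, minus strand): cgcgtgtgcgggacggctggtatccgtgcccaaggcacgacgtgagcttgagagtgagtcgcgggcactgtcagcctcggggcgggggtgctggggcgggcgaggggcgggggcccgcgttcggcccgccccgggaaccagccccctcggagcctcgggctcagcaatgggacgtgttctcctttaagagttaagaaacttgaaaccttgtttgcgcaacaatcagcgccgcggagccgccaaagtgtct
Id2 (chr12:25096254-25096342, minus strand): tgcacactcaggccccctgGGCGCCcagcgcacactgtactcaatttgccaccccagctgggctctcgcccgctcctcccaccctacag

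GGCGCC begins 78 bases before the start of Grem1, 148 bases before that of Id4 and 231 bases before that of Id2. It was therefore present in 3 of the 6 windows of 250 bases, and in 9.59% of all 32851 windows of that length in the table. The SMAD box, searched in both orientations, occurred in 2 of the 6, Grem1 and Id3, against 42.19% of all windows. The 32851 windows, from 27025 gene symbols, were not matched for base composition, so these shares do not test enrichment. Neither motif occurred in the windows of Bmp4 and Smad6. GGCGCC was thus found both in genes that rose (Grem1, Id4) and in Id2, which did not pass, and these matches describe letters and not binding.

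Levels of different genes were compared on the deposited RPKM scale, which divides by gene length. Id3 was the most abundant of the 10 in DMSO, at 76.1 ± 2.36 RPKM (mean ± SD, n = 3). Bmp4 followed at 26.0 ± 0.331, Id4 at 21.1 ± 1.02, Grem1 at 17.3 ± 1.89 and Id2 at 10.7 ± 0.919 RPKM. Lower still were Id1 at 9.33 ± 0.649, Smad6 at 6.40 ± 0.0159, Smad7 at 2.98 ± 0.0936 and Nog at 0.585 ± 0.0560 RPKM. No neighbours in this order overlapped among the DMSO samples, although Id2 and Id1 were close, with the lowest Id2 sample at 10.06 and the highest Id1 sample at 10.02 RPKM. In NU7441 the order was the same, but Id4 overlapped Grem1 and Id2 overlapped Id1. This order holds for the lengths of the deposited table, which are shorter than the merged exons of GENCODE M21 for several genes: 1639 against 4148 bases for Grem1, 1660 against 3849 for Id4, 1272 against 2438 for Id2 and 953 against 1791 for Id3. Dividing the same counts by the GENCODE lengths, tried after seeing the data, left Id3, Bmp4 and Id4 in the lead. Id1 (9.69 CPM per kilobase in DMSO) then came before Grem1 (9.03), Smad6 (7.84) and Id2 (7.41). The counts were not remade for these lengths, so reads in the added bases may be missing. That would place genes with short deposited lengths, such as Grem1, too low, and this order is not a separate measurement of level.

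**Figure D2:**
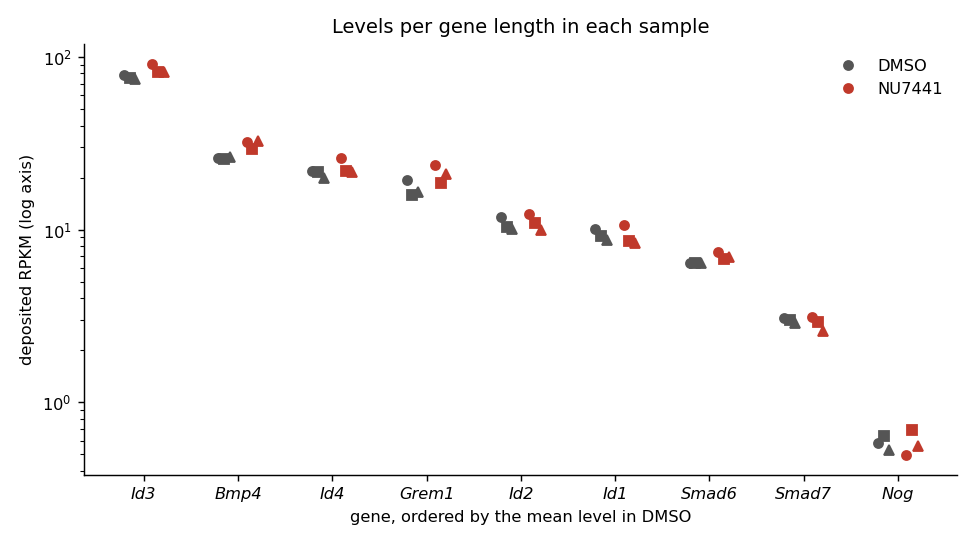
Deposited RPKM (log axis) of the 9 tested genes in each sample, ordered by the DMSO mean, with DMSO in grey and NU7441 in red and the replicates marked by circle, square and triangle. Levels run from 76.1 RPKM for Id3 to 0.585 for Nog in DMSO.

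Of the ligands, Bmp4 was abundant and rose, whereas Bmp2 was essentially silent. Bmp4 (mm10 chromosome 14, 46383520 to 46390599) encodes an osteogenic BMP. It stood at 68.3, 68.3 and 69.0 CPM with DMSO and at 85.3, 79.0 and 88.0 CPM with NU7441. The DMSO samples were almost identical to each other, and every NU7441 sample lay above them. The log2 fold change was 0.29 ± 0.04 (SE; edgeR, adjusted p = 5e-05), an increase of 22.7% with a 95% interval from 15.7% to 30.2%. The Bmp4 locus shares 89 exonic bases with Gm15217 on the opposite strand, which itself had 10 to 34 counts per sample against 3242 to 4954 for Bmp4.

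Bmp2 (chromosome 2, 133553199 to 133562885), the other osteogenic ligand gene, had 0 counts in 5 samples and 2 counts in NU7441 replicate 2. Since every deposited count is even, 2 counts appear to be 1 read pair. A library with 0 counts allows up to 3 read pairs, or between 0.0836 and 0.126 CPM depending on its depth, and this covers counting error only. No fold change is given for Bmp2, which the low-count filter removed. Of the 11 other BMP and GDF ligand genes on the pathway list 7 were also removed by that filter, 2 of them, Bmp7 and Bmp10, with 0 counts in every sample. The remaining 4, Bmp8b, Gdf5, Gdf6 and Gdf7, gave 0 calls with edgeR, 0 at an unadjusted p of 0.05 and 0 with DESeq2. Of all tested genes edgeR called 30.7%, so 0 of 4 is no result about these ligand genes. The most abundant of them was Gdf6, with 5.65, 5.22 and 4.46 CPM in DMSO and 4.58, 4.52 and 3.91 CPM in NU7441 (log2 fold change -0.23 ± 0.12, edgeR adjusted p = 0.169).

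Across samples, the 3 genes whose log2 CPM followed that of Bmp4 most closely, out of 11868 genes with a mean of at least 1 CPM, were A930038C07Rik (Pearson r = 0.998 over the 6 samples), Rpl37a (0.996) and Khnyn (0.996). With only 6 samples in 2 groups a high r is weak evidence of likeness, and 394 of the 11868 genes had an r over 0.95. Rpl37a encodes a ribosomal protein and had a log2 fold change of 0.14 ± 0.03, smaller than that of Bmp4, since r does not depend on the size of the change.

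The antagonist Grem1 rose and Nog did not pass the test. Grem1 (chromosome 2, 113748675 to 113758648) was measured at 42.1, 34.8 and 35.5 CPM in DMSO and at 51.7, 41.3 and 46.5 CPM in NU7441. The groups overlapped, because DMSO replicate 1 was slightly above NU7441 replicate 2. The log2 fold change of Grem1 was 0.31 ± 0.08 (edgeR, adjusted p = 0.0056), an increase of 24.1% with a 95% interval from 11.0% to 38.8%. That call was lost in a robust fit, which gives genes of outlying variance a weaker prior (adjusted p = 0.137 at the same log2 fold change of 0.31). DESeq2 only just passed it (adjusted p = 0.0499). An edgeR fit with the sample number as a block, a pairing that the labels do not give, had an adjusted p of 1.8e-06. With 1 library left out at a time the call held each time, with log2 fold changes between 0.23 without NU7441 replicate 1 and 0.40 without DMSO replicate 1.

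Nog (chromosome 11, 89300638 to 89302559) had only 66 to 98 counts per sample. Its values were 1.48, 1.64 and 1.34 CPM in DMSO and 1.26, 1.80 and 1.46 CPM in NU7441, so both the lowest and the highest sample belonged to NU7441. The log2 fold change of Nog was 0.03 ± 0.19 (edgeR, adjusted p = 0.93), with a 95% interval from -23.5% to 36.4%, so that a change of the size seen for Bmp4 was not detectable at this depth.

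Ligand and antagonist were set against each other within each sample, in a ratio chosen after the values were seen. The ratio of Bmp4 to Grem1 per gene length was 1.33, 1.61 and 1.60 with DMSO and 1.36, 1.57 and 1.55 with NU7441. These ranges overlap almost entirely (exact permutation test, two-sided p = 0.7, adjusted p = 0.7 over 8 ratios). The smallest p that 3 against 3 samples allow is 0.1, and the difference on the log2 scale was -0.02.

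The ID genes divided into a pair that rose and a pair that did not pass. Id3 (chromosome 4, 136143822 to 136145392), the most abundant of them, had 99.0, 95.6 and 92.7 CPM in DMSO and 115, 106 and 106 CPM in NU7441. Each NU7441 sample was above each DMSO sample. Its log2 fold change was 0.19 ± 0.04 (edgeR, adjusted p = 0.0019), an increase of 14.0% (95% interval 7.55% to 20.9%).

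Id4 (chromosome 13, 48261427 to 48264036) differs from the other ID genes in that Id4 protein is known to promote osteoblast differentiation. It had 47.8, 47.7 and 43.4 CPM in DMSO and 57.1, 49.7 and 48.9 CPM in NU7441. The groups did not overlap, but NU7441 replicate 1 stood well above the other NU7441 samples. For Id4 the log2 fold change was 0.17 ± 0.06 (edgeR, adjusted p = 0.035), an increase of 12.2% with a 95% interval from 3.30% to 21.8%. Its call was lost without NU7441 replicate 1 (log2 fold change 0.09, adjusted p = 0.141), without DMSO replicate 3 (0.12, adjusted p = 0.153), without DMSO replicate 2 (0.19, adjusted p = 0.0516) and with library size as the only scaling (0.15, adjusted p = 0.0778). The exons of 2 noncoding RNA genes on the opposite strand, A330033J07Rik and Gm49291, share 82 and 171 bases with those of Id4 in GENCODE M21, and no source used here says whether reads were counted by strand.

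Id1 (chromosome 2, 152736274 to 152737410), the member most often used as a readout of BMP signalling, had a mean of 11.2 CPM in DMSO and 11.3 in NU7441. Its samples had 12.1, 11.2 and 10.5 CPM in DMSO and 12.8, 10.7 and 10.3 CPM in NU7441. Replicate 1 was the highest in each group, and the ranges overlapped. The log2 fold change was 0.00 ± 0.09 (edgeR, adjusted p = 0.98), and the 95% interval, from -11.7% to 14.0%, leaves out an increase as large as that of Bmp4 and includes those of Id4 and Smad6. Id2 (chromosome 12, 25093799 to 25096092) had 19.8, 17.6 and 16.8 CPM in DMSO and 20.8, 18.9 and 17.3 CPM in NU7441, with replicate 1 again the highest in each group. For Id2 the log2 fold change was 0.08 ± 0.07 (edgeR, adjusted p = 0.49) with an interval from -5.53% to 17.4%, which includes the increases measured for Id3 and Id4.

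Whether the ID genes differed from each other in their response was examined through ratios within a sample, which do not depend on library scaling. These ratios, too, were chosen after the values were seen. The ratio of Id3 to Id1 per gene length was 7.85, 8.16 and 8.48 in DMSO and 8.65, 9.46 and 9.86 in NU7441. That of Id4 to Id1 was 2.18, 2.33 and 2.28 in DMSO and 2.46, 2.55 and 2.60 in NU7441. In both cases all NU7441 samples were above all DMSO samples, as they also were for Id3 to Id2. Each of these 3 ratios gave the smallest p that the design allows (exact permutation test, two-sided p = 0.1, adjusted p = 0.2 over 8 ratios), so a difference in response between ID genes was not shown, and this exact test could not have passed the threshold with 3 samples per group. The ratio of Id3 to Id4 was 3.61 ± 0.111 (SD, n = 3) in DMSO and 3.67 ± 0.137 in NU7441, with overlapping samples (exact permutation test, p = 0.6).

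Of the inhibitory SMAD genes, Smad6 rose and Smad7 did not pass. Smad6 (chromosome 9, 63953076 to 64022059), whose product acts mainly on BMP receptor signalling, was at 25.0, 25.4 and 25.0 CPM in DMSO and at 29.1, 27.4 and 27.9 CPM in NU7441. The DMSO samples agreed closely and all NU7441 samples were above them. The log2 fold change of Smad6 was 0.16 ± 0.04 (edgeR, adjusted p = 0.0065), an increase of 11.9% with an interval from 5.41% to 18.7%. Smad7 (chromosome 18, 75367365 to 75395934), whose product acts on both TGF-beta and BMP receptors, had 17.9, 17.8 and 16.8 CPM in DMSO and 18.3, 17.6 and 15.6 CPM in NU7441. The groups overlapped, and the highest and the lowest values were both in NU7441. Its log2 fold change was -0.03 ± 0.06 (edgeR, adjusted p = 0.79), with an interval from -10.8% to 7.86%. The ratio of Smad6 to Smad7 per gene length was 2.09, 2.13 and 2.23 in DMSO and 2.38, 2.32 and 2.68 in NU7441, with no overlap (exact permutation test, two-sided p = 0.1, adjusted p = 0.2 over 8 ratios). This ratio was chosen after the values were seen, and the exact test could not have passed the threshold with 3 samples per group. A difference in response between Smad6 and Smad7 was thus not shown.

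The receptors and SMADs that carry the signal were mostly expressed, and 2 of them, both receptors, passed the test. Among the 10 receptor and co-receptor genes, 8 were tested and 2 were called, both higher, where 30.7% of all tested genes were called and 14.1% were higher. Bmpr2, the type II BMP receptor, had 69.6 ± 0.909 CPM in DMSO and 78.5 ± 1.88 CPM in NU7441 (mean ± SD, n = 3), and rose (0.17 ± 0.03 on the log2 scale, edgeR adjusted p = 0.0011). Bmpr1a, a type I receptor, rose from 136 ± 1.48 to 151 ± 7.90 CPM (0.15 ± 0.04, edgeR adjusted p = 0.0051). Acvr1, another type I receptor, stood at 78.7 ± 1.46 and 82.9 ± 0.773 CPM (0.07 ± 0.03, edgeR adjusted p = 0.099), with no overlap between the groups, and passed with upper-quartile scaling (adjusted p = 0.0279). The type II receptors Acvr2a (0.02 ± 0.05) and Acvr2b (0.50 ± 0.32), the endoglin gene Eng (0.19 ± 0.19) and the BMP co-receptors Rgma (0.06 ± 0.06) and Rgmb (0.02 ± 0.07) did not pass. Bmpr1b and Acvrl1 had at most 2 counts in any sample.

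None of the 4 SMAD transducer genes was called by edgeR, at an unadjusted p of 0.05 or by DESeq2 (0 in each case). Of all tested genes edgeR called 30.7%, so with only 4 genes this count is no result about the transducers. Smad5, the most abundant in CPM, had 92.3 ± 1.64 CPM in DMSO and 92.0 ± 0.801 in NU7441, a log2 fold change of 0.00 ± 0.03. Smad1 had a log2 fold change of -0.10 ± 0.05, Smad9 of 0.12 ± 0.06 and Smad4, the partner shared with TGF-beta signalling, of 0.04 ± 0.03. The estimates for Smad1 and Smad9 pointed in opposite directions.

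Of 15 other extracellular antagonists and modulators besides Nog and Grem1, 10 were tested, 4 were higher and 1 was lower, against 14.1% and 16.6% of all tested genes. Fst, which encodes follistatin, an antagonist of activins that also binds BMPs, was at 89.8 ± 2.18 CPM in DMSO and rose to 120 ± 2.54 CPM in NU7441 (0.42 ± 0.03, edgeR adjusted p = 1.5e-07). Nbl1 (0.24 ± 0.04) and Chrdl1 (0.20 ± 0.04), which encode secreted BMP antagonists, rose, as did Crim1 (0.16 ± 0.04), a transmembrane BMP-binding protein gene. The single gene that fell, Bmper, named like Crim1 after its value was seen, went from 1.66 ± 0.195 to 1.12 ± 0.0911 CPM (-0.57 ± 0.19, edgeR adjusted p = 0.034). Its call was lost with DESeq2 (adjusted p = 0.0667) and without replicate 2 or replicate 3 of DMSO and without replicate 1 or replicate 3 of NU7441 (adjusted p from 0.0765 to 0.139).

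Inside the cell, 4 of the 8 regulators on the list rose and 0 fell with edgeR (0 also at an unadjusted p of 0.05 and with DESeq2), beside 14.1% and 16.6% of all tested genes. Only Smurf2 and Ski of these 4 kept their calls in all 15 alternatives. Smurf2, a ubiquitin ligase that targets SMADs and receptors, went from 161 ± 0.593 to 200.4 ± 3.90 CPM (0.32 ± 0.03, edgeR adjusted p = 7e-07). Ski (0.17 ± 0.03) and Skil (0.18 ± 0.06), which encode corepressors of SMAD transcription, rose, and so did Pmepa1 (0.16 ± 0.06), a TGF-beta target that was named after its value was seen. The Skil call was lost without replicate 2 or replicate 3 of DMSO, without replicate 1 or replicate 2 of NU7441 and with library size only (adjusted p from 0.0511 to 0.112). That of Pmepa1 was lost without replicate 1 or replicate 2 of either group, with library size only and with DESeq2 (adjusted p from 0.0555 to 0.19). The paralog Smurf1 had a log2 fold change of 0.05 ± 0.04, and Bambi, a pseudoreceptor gene, of -0.06 ± 0.13.

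Transcription factors downstream of BMP and the bHLH partners of ID proteins completed the list. Of all tested genes 14.1% were higher and 16.6% lower. Among 8 tested target factors 2 rose, Atoh8 (0.22 ± 0.05, edgeR adjusted p = 0.0035) and Dlx2 (0.18 ± 0.06, adjusted p = 0.044), and Dlx2 lost its call in 6 of 15 alternatives, among them DESeq2 (adjusted p = 0.076) and leaving out any 1 of the DMSO replicates or NU7441 replicate 1 (adjusted p from 0.0843 to 0.23). Dlx5, Msx1, Msx2, Runx2, Sp7 and Dlx3 did not pass. Of the 5 bHLH genes 0 rose with edgeR (0 also at an unadjusted p of 0.05 and with DESeq2) and 2 fell. Twist1, a bHLH factor that restrains osteoblast differentiation, went from 30.6 ± 2.35 to 26.4 ± 1.47 CPM (-0.21 ± 0.06, edgeR adjusted p = 0.0083), a call lost without NU7441 replicate 2 (adjusted p = 0.0528). Tcf3, the gene of the E proteins E12 and E47, went from 96.8 ± 2.57 to 89.8 ± 0.682 CPM (-0.11 ± 0.03, adjusted p = 0.02), a call lost without DMSO replicate 2, DMSO replicate 3 or NU7441 replicate 3 and with upper-quartile scaling (adjusted p from 0.0502 to 0.106).

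**Figure D3:**
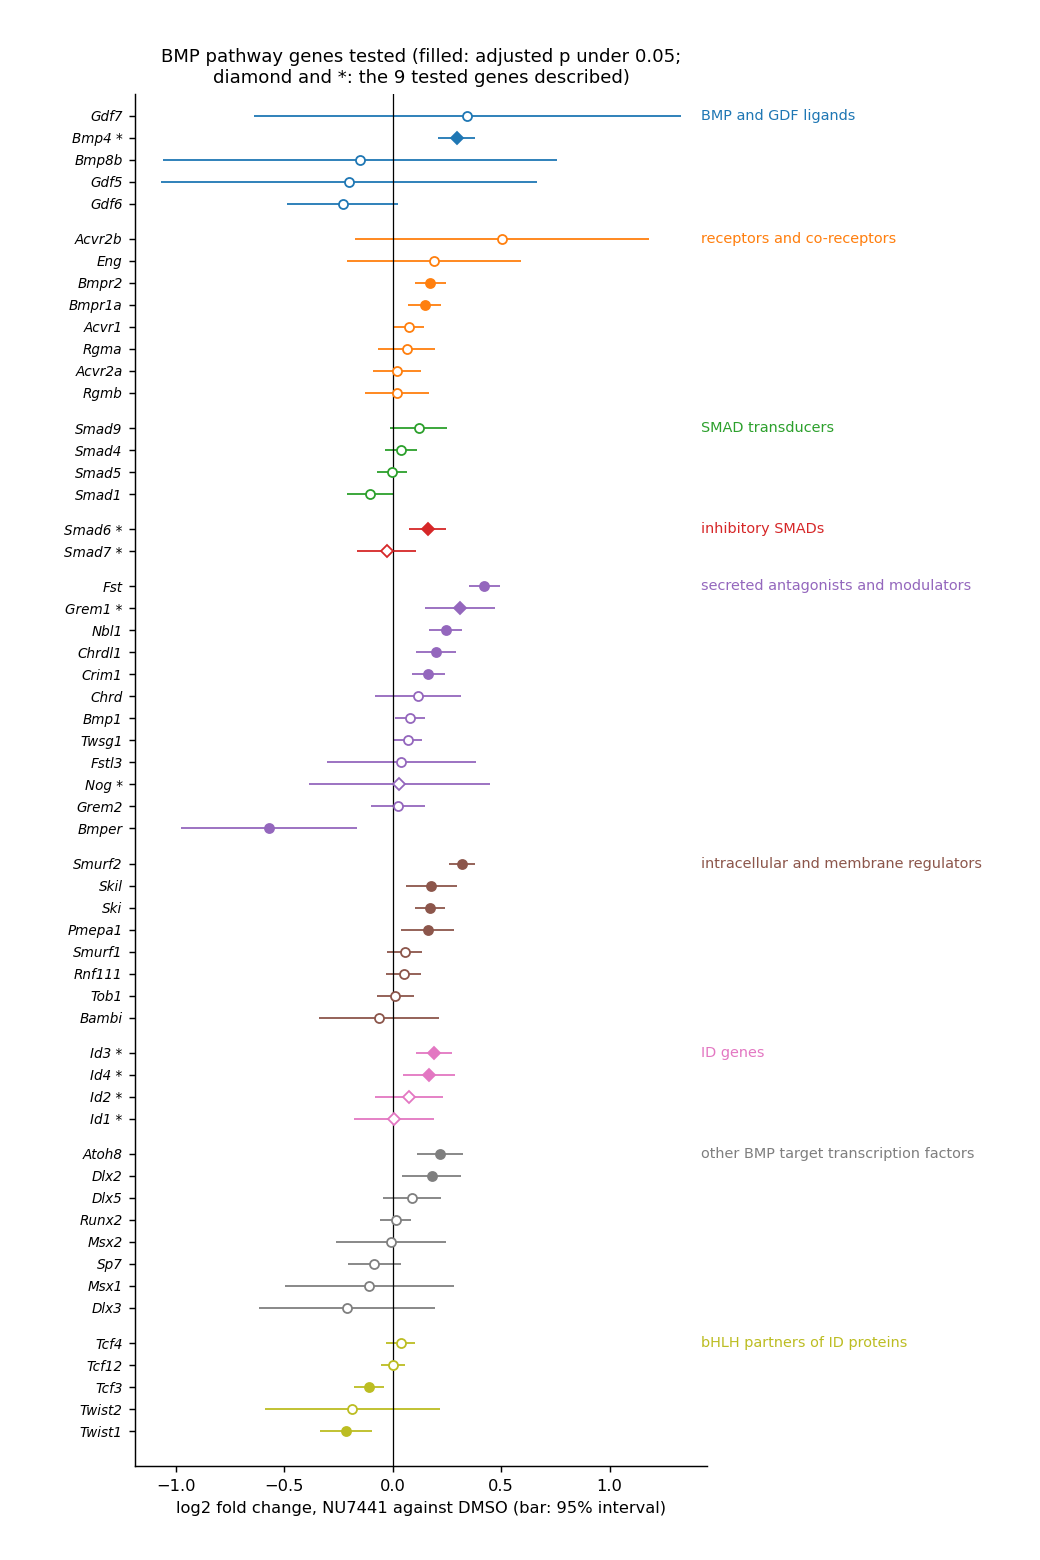
Log2 fold changes of NU7441 against DMSO with their 95% intervals for the 56 tested genes of the BMP pathway list, grouped by role; filled symbols passed an adjusted p of 0.05 and diamonds mark the 9 tested genes of the set described. The 5 filled diamonds lie between 0.16 and 0.31, and filled symbols to the left of 0 are Bmper, Tcf3 and Twist1.

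Over the 62 list genes outside the set, 47 were tested, 12 were higher and 3 lower, with a median log2 fold change of 0.05. These 15 of 47 calls are a share near the 30.7% of all tested genes, of which 14.1% were higher and 16.6% lower, so the number called is no result about the list. The number lower was 1 without DMSO replicate 2, without DMSO replicate 3 or without NU7441 replicate 3. Every change called for the set and for the rest of the list was below 1.5-fold, the largest being that of Bmper.

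**Figure D4:**
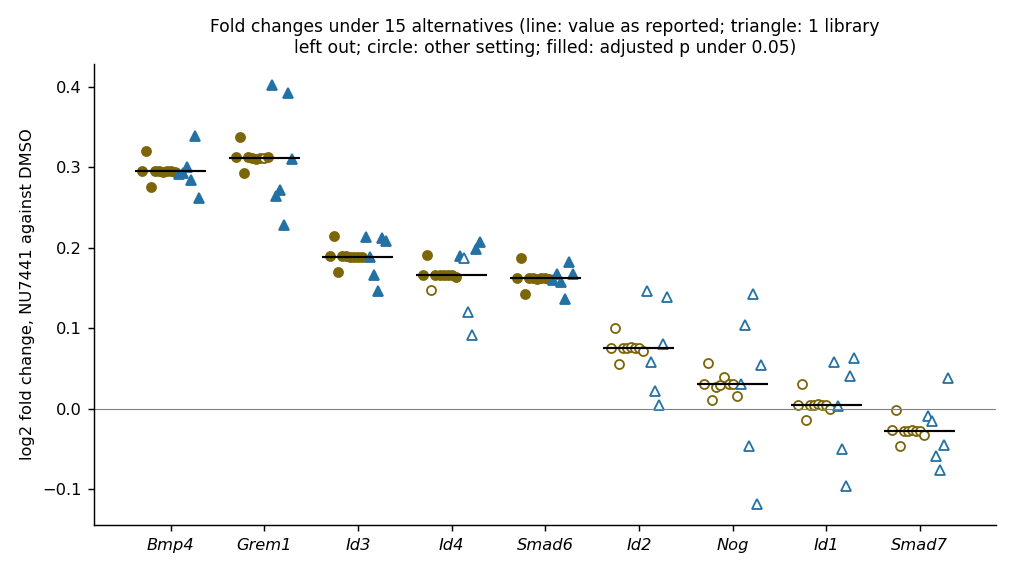
Log2 fold changes of the 9 tested genes under the 15 alternatives, with triangles for fits that leave out 1 library, circles for other settings, filled symbols for an adjusted p under 0.05 and a line at the value reported. Bmp4, Id3 and Smad6 are filled throughout, Grem1 and Id4 in part, and the remaining 4 genes in none.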

How the data were processed

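The members and gene lists were chosen with earlier results of these data known. Per the submitters' processing notes, bcl2fastq, TopHat2 version 2.0.6, HTSeq and mm10 were used, with no settings given. The authors deposited whole-number counts (0 odd values), RPKM and a gene length per row. RPKM served for levels between genes. CPM was computed from counts with scaled library sizes.

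Counts as deposited passed filterByExpr (minimum count of 10, total of at least 15), were TMM-scaled and were tested with edgeR 4.0.16 in R 4.3.3, two-sided, with group as the only term and Benjamini-Hochberg adjustment over all genes tested. The SE is the log2 fold change divided by the square root of F, and intervals are 95%. DESeq2 1.42.0 and 14 other alternatives were run. The procedure was also run on simulated counts, drawn independently for each sample. That run held no effect shared by same-numbered samples and so does not cover one. Samples of a group differed by more than sampling noise. The 8 ratios were chosen after the values were seen and tested by exact permutation. 0 sample columns were left unmapped.

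Named genes are the 10 members, all tested receptors and SMAD transducers, up to 3 called genes with the lowest adjusted p per other role, and the 3 genes most correlated with the member of lowest p. Gdf6, Smurf1, Bambi and uncalled target factors were named after their values were seen.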

Additional observations from a re-analysis of the deposited data

How the results depend on the processing

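The number of the 9 tested members called higher was 5 in 10 of 15 alternatives and 4 in the other 5 (library size only, the robust fit, and without DMSO replicate 2, DMSO replicate 3 or NU7441 replicate 1), and 0 were lower in each. The number of other BMP pathway genes called lower lay between 1 and 4 with 1 library left out. Of all genes, between 1494 of 14003 tested (without DMSO replicate 2) and 2488 of 13784 (upper-quartile scaling) were called higher over the alternatives. Those called lower lay between 1886 of 13955 (without DMSO replicate 3) and 2703 of 13784 (replicate block). No call of Bmp4, Id3 or Smad6 was lost in the 15 alternatives, over which their adjusted p reached at most 0.00092, 0.0144 and 0.0329. The sample numbers do not pair the samples by the labels: deviations of same-numbered samples correlated at 0.047 to 0.134, though each of the 6 samples correlated best with its own number. A fit with the replicate number as a block called 5120 genes in place of 4231, the same 5 members, and 14 other pathway genes higher and 4 lower. Upper-quartile scaling raised the median of all genes from 0.01 to 0.03 and library size only set it at -0.01. Depth limits Nog, with 66 to 98 counts, and Bmp2.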

Other observations

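Within each group the values of the members tended to lie highest in the library numbered 1. NU7441 replicate 1 was the highest NU7441 library for 7 of the 9 tested members, all but Bmp4 and Nog, and for 35.1% of all tested genes. DMSO replicate 1 was the highest DMSO library for 6 of the 9 (34.9% of all genes), and DMSO replicate 3, the deepest library, was the lowest for 7 of the 9 (31.6% of all genes). The labels give no batch for these numbers. Without NU7441 replicate 1 the log2 fold change of Id1 was -0.10, that of Id2 0.00 and that of Id4 0.09, none of them passing the test, while Bmp4 (0.28), Grem1 (0.23), Id3 (0.15) and Smad6 (0.14) still passed.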
